A study of Homo sapiens with 6 samples.

Results

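The insulin-like growth factor (IGF) binding proteins IGFBP2, IGFBP3, IGFBP4, IGFBP5, IGFBP6 and IGFBP7, the receptors IGF1R and INSR and the receptor substrates IRS1 and IRS2 were compared between MCF10.AT1 cells and their fluvastatin-resistant derivative, MCF10.AT1-R. These 10 genes were taken by symbol from the 81496 gene symbols of the array table, and where a symbol had several probe sets the probe set with the highest mean was used. Of the 10 genes, 9 had 1 probe set and IRS2 had 2. MCF10.AT1 is an established, preneoplastic human cell line from breast epithelium, derived from MCF10A and carrying a transforming HRAS. MCF10.AT1-R was obtained from it by growth in rising fluvastatin, at 1 µM, 5 µM and up to 20 µM, and both lines were kept in medium with horse serum, EGF, hydrocortisone and insulin. Fluvastatin is a statin, an inhibitor of HMG-CoA reductase, the rate-limiting enzyme of cholesterol synthesis. The resistant cells are a single derived line, and the labels do not say whether the drug was in the medium when RNA was taken. Clariom D arrays, which read mRNAs and noncoding RNAs with short probes, were run on 3 arrays of each line, and each value is a log2 expression value made by the RMA method.

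MCF10.AT1 was represented by the arrays A01 and A02, and MCF10.AT1-R by B02, B03 and B04. The remaining MCF10.AT1 array, A03, was removed by the study as an outlier and is given apart. Between any pair of the 5 arrays the Pearson correlation over 135750 transcript probe sets lay between 0.967 and 0.977, whereas A03 correlated with them at 0.779 to 0.795. The level at which a probe set stands above noise was set at 2.99, the 95th percentile of 612 negative-control probe sets averaged over the 5 arrays. The values of different probe sets are not compared in level, because each probe set has its own affinity. The letter of the array name and the line cannot be told apart.

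IGF1 and IGF2 signal through IGF1R, and insulin through INSR, both receptor tyrosine kinases that phosphorylate the docking proteins IRS1 and IRS2 and thereby engage PI3K and AKT. The IGF binding proteins hold IGFs in the extracellular fluid and limit or deliver them to the receptor, and they are themselves cut by proteases such as the metalloproteinase PAPPA. Active AKT keeps FOXO transcription factors out of the nucleus, so FOXO target genes are a known transcriptional readout of the pathway. In breast epithelium the pathway is known for its part in growth and survival.

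The promoters of the 3 binding protein genes with the largest differences are shown first, as the 250 bases before the RefSeq start (GRCh38.p14), 5′ to 3′ on the strand of the gene. Capitals mark GC boxes (GGGCGG on either strand) and, in IGFBP6, the FOXO core GTAAACA. The IGFBP2 sequence lies at chr2:216632578-216632827 on the plus strand, before the most upstream of 3 annotated starts. The IGFBP3 sequence lies at chr7:45921273-45921522 on the minus strand, and the IGFBP6 sequence at chr12:53097417-53097666 on the plus strand.
IGFBP2: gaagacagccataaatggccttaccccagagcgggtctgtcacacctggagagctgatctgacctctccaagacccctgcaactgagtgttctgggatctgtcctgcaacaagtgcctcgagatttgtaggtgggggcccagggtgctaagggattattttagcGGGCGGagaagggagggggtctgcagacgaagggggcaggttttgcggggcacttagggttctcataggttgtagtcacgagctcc
IGFBP3: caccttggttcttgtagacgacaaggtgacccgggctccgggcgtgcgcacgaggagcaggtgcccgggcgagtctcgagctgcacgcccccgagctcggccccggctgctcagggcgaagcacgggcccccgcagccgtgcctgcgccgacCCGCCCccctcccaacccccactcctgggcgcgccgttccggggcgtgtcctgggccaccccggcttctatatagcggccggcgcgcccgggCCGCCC
IGFBP6: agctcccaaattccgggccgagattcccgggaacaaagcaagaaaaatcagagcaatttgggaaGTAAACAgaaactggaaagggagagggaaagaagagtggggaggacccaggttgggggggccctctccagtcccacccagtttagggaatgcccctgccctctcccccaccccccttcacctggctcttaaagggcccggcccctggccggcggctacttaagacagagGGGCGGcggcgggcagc

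The IGFBP3 promoter was 76.0% G and C, IGFBP6 61.2% and IGFBP2 56.8%, beside a median of 58.0% over 35116 RefSeq promoters of the same length. The windows before the other IGFBP2 starts, which are not printed, were 69.2% and 56.4% G and C. Among the printed sequences a GC box was found once in IGFBP2 and IGFBP6 and 2 times in IGFBP3, and 42.6% of all promoters held at least 1. The FOXO core of IGFBP6 stood 186 to 180 bases before the start, a match present in 2.98% of all promoters. Of the other letters searched on both strands, TATAAA (10.7% of all promoters), the sterol regulatory element TCACNCCAC (0.883%) and the insulin response element CAAAACA (4.30%) were in none of the 3 sequences. Among all 10 genes, TATAAA occurred in IGFBP4 and CAAAACA in IRS2, 40 to 34 bases before its start. These matches describe the letters of the windows. In the order of RefSeq genes, IGFBP2 lay next to IGFBP5 on chromosome 2, and IGFBP3 next to IGFBP1 on chromosome 7, with 0 protein-coding genes between them.

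Transcripts of the binding proteins were lower in the resistant line for IGFBP2, by 2.20-fold, and this was the only gene of the 10 past a false discovery rate (FDR) of 5%. IGFBP3 was 1.98-fold and IGFBP6 1.66-fold lower in MCF10.AT1-R, with every resistant array below both parental arrays, but neither passed this threshold. The receptors and substrates IGF1R, INSR, IRS1 and IRS2 differed by −0.31 to 0.17 on the log2 scale, with overlapping arrays in each case. Across all tested probe sets 1.2% passed FDR 5%, 0.447% as lower and 0.758% as higher in MCF10.AT1-R. Of the 10 genes, 7 were tested, since IGFBP7, IGF1R and IRS2 were removed as invariant, and the 1 called gene is 14.3% of the tested 7. The 10 genes were chosen with earlier results of these data known, so this share is not a test of the group.

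**Figure D1:**
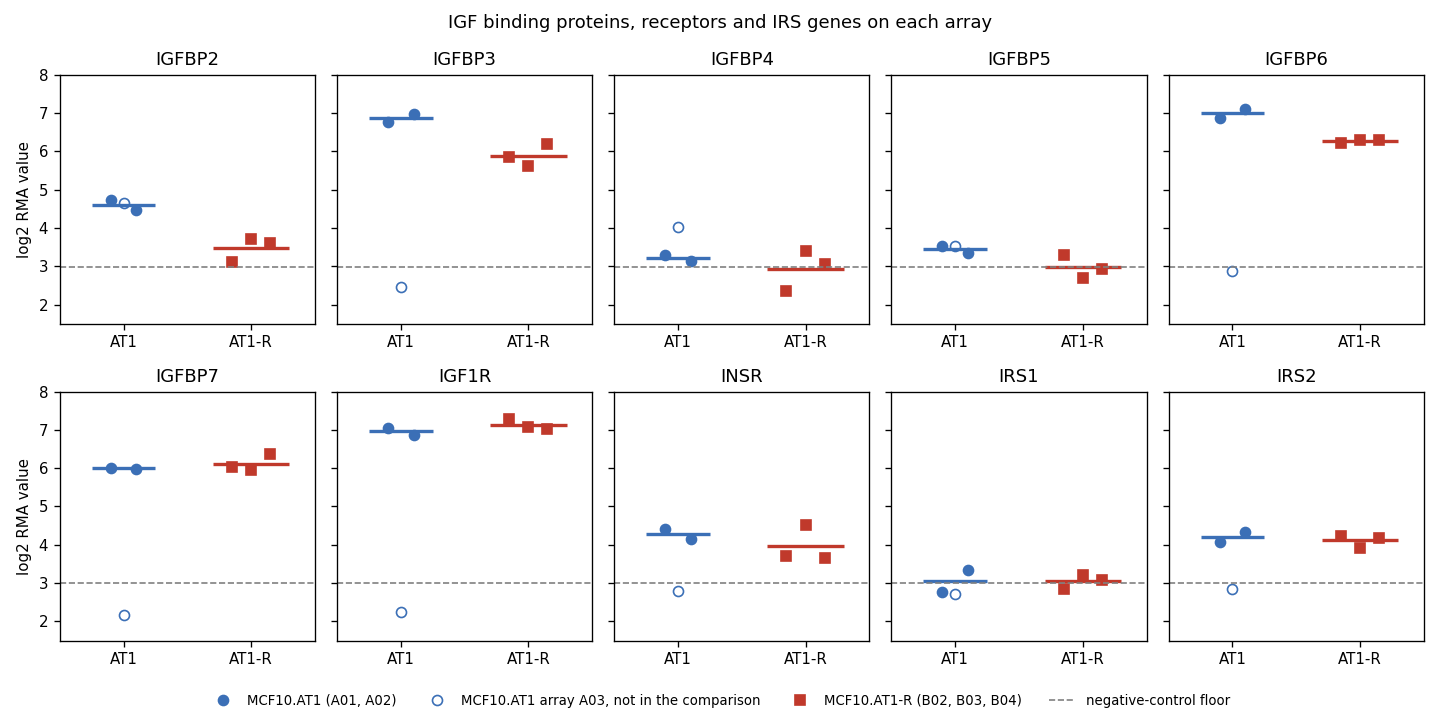
Log2 RMA value of each of the 10 genes on each array. Filled circles are A01 and A02, open circles A03, squares the MCF10.AT1-R arrays, lines the mean of each line without A03, and the dashed line the negative-control level of 2.99. The arrays of the lines stood apart for IGFBP2, IGFBP3, IGFBP5 and IGFBP6.

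IGFBP2 encodes a binding protein that carries an integrin-binding motif and is abundant in serum. Its log2 values (probe set TC0200010745.hg.1) were 4.74 and 4.47 on the MCF10.AT1 arrays and 3.11, 3.70 and 3.60 on the MCF10.AT1-R arrays. All 3 resistant arrays lay below both parental arrays, with a gap of 0.77, and every array was above the negative-control level. The mean went from 4.61 ± 0.19 (SD, n = 2) to 3.47 ± 0.32 (SD, n = 3). IGFBP2 thus fell by 1.14 on the log2 scale, to 45.5% of the parental level (SE 0.31, 95% interval −1.75 to −0.53, limma with Benjamini-Hochberg adjustment, adjusted p = 0.027). On A03 the IGFBP2 value was 4.64, between those of A01 and A02. This call was lost when some arrays or the filter were left out: limma's adjusted p was 0.518 without A01, 0.20 without A02, 0.230 without B02 and 0.257 without any filter. Without A01 or A02 the parental line has 1 array, which is assumed to vary like the resistant arrays, and over all probe sets 314 and 271 calls were then left of 620. The log2 change itself lay between −1.27 and −0.96 in every setting tried.

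IGFBP3, the main carrier of IGFs in the circulation and a secreted product of epithelial cells (probe set TC0700010965.hg.1), read 6.76 and 6.97 on the parental arrays and 5.85, 5.61 and 6.20 on the resistant arrays. The groups did not overlap, with a gap of 0.56. The parental mean was 6.87 ± 0.15 (SD, n = 2) and the resistant mean 5.88 ± 0.30 (SD, n = 3). The log2 difference of −0.98 (95% interval −1.59 to −0.37) had an adjusted p of 0.098 in limma and so lay past FDR 10%, as did 1.65% of all tested probe sets, and not past FDR 5%. It stayed past FDR 10% without B04 (limma adjusted p = 0.077). It did not without B02 or B03 (0.221 and 0.285), without any filter (0.353) or with the arrays centred (0.109). Without A01 or A02 the difference was −1.09 or −0.88.

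IGFBP6, a binding protein with a marked preference for IGF2 (probe set TC1200007693.hg.1), read 6.88 and 7.11 on the parental arrays and 6.22, 6.29 and 6.29 on the resistant arrays. The resistant arrays were tightly placed and lay 0.59 below the lower parental array. The parental mean was 7.00 ± 0.16 (SD, n = 2) and the resistant mean 6.27 ± 0.04 (SD, n = 3), a log2 difference of −0.73 (95% interval −1.34 to −0.12, limma adjusted p = 0.413). The residual SD of IGFBP6 was 0.10, whereas limma assigned a common SD of 0.34 to all probe sets after the filter. When the variance was allowed to follow the expression level (the trend option of limma), IGFBP3 and IGFBP6 passed FDR 5% with adjusted p of 0.00021 and 0.010, beside IGFBP2 at 0.012, and 2.68% of all tested probe sets then passed. With the trend option and no filter on invariant probe sets, where 1.6% of the probe sets passed, the called genes were again IGFBP2, IGFBP3 and IGFBP6. With the low-expression filter alone and no trend, limma called 0.268% of the probe sets and none of the 10 genes, of which 3 had an unadjusted p under 0.05.

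IGFBP5, which binds extracellular matrix and is regulated in the involuting mammary gland, read 3.54 and 3.34 on the parental arrays and 3.30, 2.68 and 2.93 on the resistant arrays. The groups stood apart by 0.04 only, and B03 and B04 were under the negative-control level. The log2 difference was −0.47 (95% interval −1.08 to 0.14, limma adjusted p = 0.769). The resistant mean of IGFBP5, 2.97, was under the negative-control level as well, and with values raised to that level the difference was −0.35. IGFBP4, an inhibitory binding protein and the classical PAPPA substrate, read 3.30 and 3.13 in MCF10.AT1 and 2.35, 3.41 and 3.05 in MCF10.AT1-R. Here B03 was the highest array and B02 the lowest, so the lines overlapped. The log2 difference was −0.28 (95% interval −0.89 to 0.33, limma adjusted p = 0.840). Both B02 and the resistant mean of IGFBP4, 2.94, were under the negative-control level, so this difference is not exact. With values raised to that level it was −0.07.

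IGFBP7, a low-affinity relative that also binds insulin, was the only one of these 6 binding proteins with a positive difference. It read 6.01 and 5.99 on the parental arrays and 6.03, 5.95 and 6.36 on the resistant arrays, and the groups overlapped. The log2 difference was 0.11, with a 95% interval of −0.35 to 0.57 in the limma fit without a filter (adjusted p = 0.951). Over the 6 binding proteins the median log2 difference was −0.60 and 5 of 6 were negative, beside a median of 0.0050 over all gene symbols. This median and count include IGFBP4 and IGFBP5, whose differences are not exact because their resistant means were under the negative-control level. They leave out IGFBP1, which is not among the 10 genes. IGFBP1 read 3.53 and 3.19 on the parental arrays and 2.92, 3.79 and 3.43 on the resistant arrays, so the lines overlapped. Its log2 difference was 0.02 (limma adjusted p = 0.988), and B02 was under the negative-control level. Arrays of the lines stood apart, lower in MCF10.AT1-R, for 4 of the 10 genes (IGFBP2, IGFBP3, IGFBP5 and IGFBP6), which are 57.1% of the tested 7, and for 0 genes in the higher direction. Among all tested probe sets 13.8% stood apart as lower and 12.9% as higher. With 2 arrays against 3, an exact two-sided permutation test cannot give a p below 0.10 for any single gene.

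**Figure D2:**
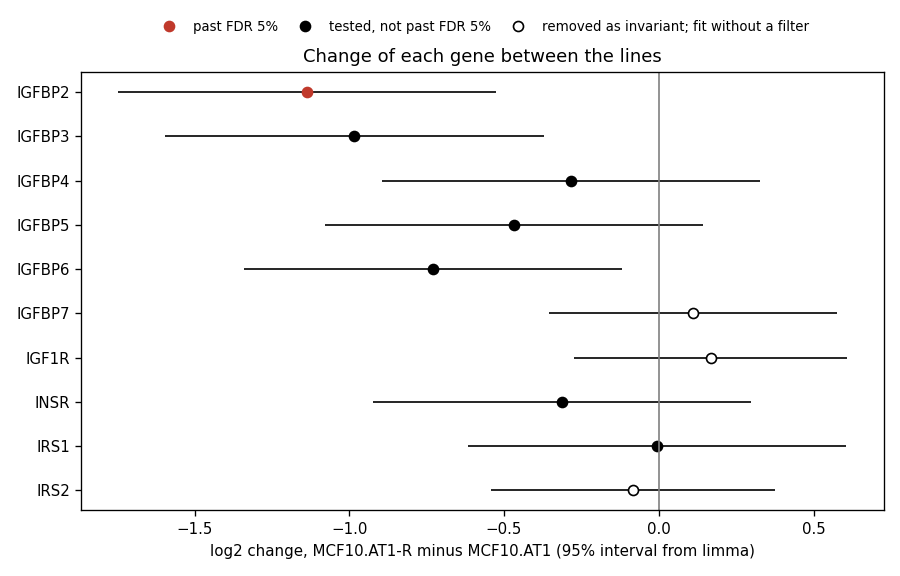
Log2 change of each gene, MCF10.AT1-R minus MCF10.AT1, with the 95% interval from limma. The intervals of IGFBP2, IGFBP3 and IGFBP6 lie below 0, and IGFBP2 alone is past FDR 5%; open circles are genes removed as invariant, with values from the fit without a filter.

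IGF1R, the signalling receptor for IGF1 and IGF2, read 7.05 and 6.87 on the parental arrays and 7.29, 7.07 and 7.03 on the resistant arrays. These values overlapped, and the log2 difference of 0.17 had a 95% interval of −0.27 to 0.61 (limma without a filter, adjusted p = 0.912). INSR, the insulin receptor, read 4.41 and 4.14 in MCF10.AT1 and 3.72, 4.52 and 3.65 in MCF10.AT1-R. B03 was above both parental arrays and B02 and B04 were below them. The log2 difference of INSR was −0.31 (95% interval −0.92 to 0.30, limma adjusted p = 0.837).

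IRS1, the docking protein that carries much of the signal of both receptors, read 2.78 and 3.33 on the parental arrays and 2.85, 3.22 and 3.08 on the resistant arrays. It stood close to the negative controls, with 3 of 5 arrays above their level, and differed by −0.0049 on the log2 scale (95% interval −0.62 to 0.61, limma adjusted p = 0.998). IRS2, the second docking protein, read 4.07 and 4.32 in MCF10.AT1 and 4.23, 3.93 and 4.18 in MCF10.AT1-R. The groups overlapped, and the log2 difference was −0.08 (95% interval −0.54 to 0.38, limma without a filter, adjusted p = 0.965). The second IRS2 probe set was above the negative-control level on B02 alone. The median log2 difference of the 4 receptor and substrate genes was −0.04.

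IGFBP2 had the largest difference of the 10 genes, and the symbols whose centred values were closest to it over the 5 arrays were sought among 35765 tested symbols. These were MAP3K5, a stress-activated kinase kinase kinase, with a root mean square distance of 0.098 on the log2 scale, the transcript RP11-326G21.1 with 0.103 and slawtoby with 0.121. MAP3K5 read 5.89 and 5.72 on the parental arrays and 4.39, 5.11 and 4.74 on the resistant arrays, a log2 difference of −1.06. As in IGFBP2, B02 was the lowest array and B03 the highest of the resistant line, but MAP3K5 was chosen on these same values. In slawtoby B04, at 3.24, was the highest of the resistant line. B02 was under the negative-control level in RP11-326G21.1 and slawtoby (2.96 and 2.54). The likeness is a description over 5 arrays.

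Around the 10 genes, 73 genes of 6 lists of the insulin and IGF pathway were measured and 52 were tested, of which 2 rose and 4 fell past FDR 5%. The 6 called genes are 11.5% of the tested genes, and over all 35766 tested gene symbols 1.52% were called. The lists were chosen with earlier results of these data known, so the shares describe the lists and do not test them. The median log2 difference of the 73 genes was 0.02. The called genes belonged to 2 lists, the ligand and proteolysis list and the FOXO list.

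Among 10 genes of ligands, transport and binding protein proteolysis, STC1 and STC2 fell and none rose. Both encode stanniocalcins, secreted glycoproteins that inhibit PAPPA. STC1 read 6.48 and 6.43 on the parental arrays and 5.07, 4.50 and 4.84 on the resistant arrays. It fell by 1.65 on the log2 scale, to 31.8% of the parental level (limma adjusted p = 3.4e-05), and the highest resistant array lay 1.36 below the lower parental array. Its limma adjusted p was 0.041 without any filter and 0.042 with the low-expression filter alone. STC2 read 6.99 and 6.61 in MCF10.AT1 and 5.35, 5.28 and 5.64 in MCF10.AT1-R, a fall of 1.37 to 38.6% of the parental level (limma adjusted p = 0.0019). The call of STC2 was lost in limma without A01 (adjusted p = 0.277) and without any filter (0.094), whereas STC1 stayed past FDR 5% whichever array was left out (highest adjusted p = 0.016).

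The remaining 8 genes of that list lay between −0.63 and 0.14. Some are given although they were chosen after their values were seen, because they are the ligands and the protease. IGF1 read 4.35 and 4.12 against 4.38, 4.45 and 3.91, and PAPPA 4.79 and 3.73 against 4.16, 4.23 and 4.43, and neither passed the test (limma adjusted p of 0.994 for both). IGF2 read 3.19 and 4.22 against 3.08, 3.01 and 3.13. Its A02 array stood well above the rest, and the difference of −0.63 had a limma adjusted p of 0.570. INS, the insulin gene, was under the negative-control level on all 5 arrays. IGF2R, the clearance receptor for IGF2, differed by −0.04.

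Of 17 FOXO factors and FOXO targets, 2 rose and 2 fell, and the list had a median log2 difference of 0.21. FOXO1 itself read 5.45 and 5.33 on the parental arrays and 4.24, 3.56 and 3.98 on the resistant arrays. It fell by 1.46, to 36.3% of the parental level (limma adjusted p = 0.00060). PDK4, the pyruvate dehydrogenase kinase that rises in fasting, read 4.15 and 3.97 in MCF10.AT1 and 1.87, 1.83 and 2.09 in MCF10.AT1-R. All 3 resistant arrays were under the negative-control level, so the fall of PDK4 is given as at least 2.10-fold. The limma adjusted p of 5.5e-09 belongs to the log2 difference of −2.13 of the values as read, not to this bound. It was 0.0061 without any filter, and with values raised to the negative-control level PDK4 was not called.

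The FOXO targets that rose were ERBB3 and CCNG2. ERBB3, a receptor tyrosine kinase that binds neuregulins and engages PI3K, read 3.47 and 3.80 on the parental arrays and 5.27, 5.49 and 5.71 on the resistant arrays. It rose by 1.85 on the log2 scale, 3.61-fold (limma adjusted p = 1.2e-06). CCNG2, an unconventional cyclin associated with cell cycle exit, read 5.39 and 5.76 in MCF10.AT1 and 6.95, 6.56 and 7.01 in MCF10.AT1-R, a rise of 1.27 (limma adjusted p = 0.0071). The 4 calls thus ran in both directions. Over the whole list of 17, arrays of the lines stood apart for 7 genes as higher and 5 as lower, the 4 called genes among them. The higher ones include SESN3, which was under the negative-control level on all 5 arrays, and FOXO3, with a gap of only 0.013. Over all 81496 gene symbols 10433 stood apart as higher and 9720 as lower. PDK4 and ERBB3 stayed past FDR 5% whichever array was left out (highest adjusted p = 0.00031 and 0.00995). FOXO1 was lost without A01 (adjusted p = 0.081), and CCNG2 without A01, A02 or B04 (0.418, 0.069 and 0.057). Both were also lost in limma without any filter (0.106 and 0.154), with the low-expression filter alone (0.094 and 0.123) and when probe sets were averaged per symbol. FOXO1 and CCNG2 each have a second probe set, which was under the negative-control level on all 5 arrays.

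None of the genes in the other 4 lists passed FDR 5%. Of 20 genes of PI3K, AKT and mTOR, the largest difference was that of PIK3R1, which encodes the main regulatory subunit of PI3K. PIK3R1 read 6.82 and 6.37 on the parental arrays and 5.91, 5.60 and 6.03 on the resistant arrays. Its log2 difference of −0.75 had a limma adjusted p of 0.381, or 0.021 with the trend option. With that option 1 gene of the list was called as lower and 1 as higher. The higher one, named for this reason, was GSK3B, with a log2 difference of 0.41 (limma adjusted p = 0.00018, or 0.808 without the option). The median of the list was 0.03.

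Of 12 adaptors and inhibitors at the receptor, 5 were tested, and the median log2 difference was 0.08. GRB14, an adaptor that inhibits the insulin receptor, differed by 0.48 with widely spread arrays (limma adjusted p = 0.762). SOCS3, a feedback inhibitor of cytokine and insulin signalling, was under the negative-control level on both parental arrays and B04. Its arrays overlapped between the lines, and it did not pass the test (limma adjusted p = 0.793). Of 11 other proteins with an IGFBP domain the median was −0.06, and the largest differences were 0.60 for CCN1, a matricellular protein listed under its older symbol CYR61, and −0.43 for HTRA1, a secreted serine protease (limma adjusted p of 0.618 and 0.796). Of the 3 IGF2 mRNA-binding proteins, IGF2BP2 differed by 0.34 and IGF2BP3 by −0.40 (limma adjusted p of 0.834 and 0.813).

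**Figure D3:**
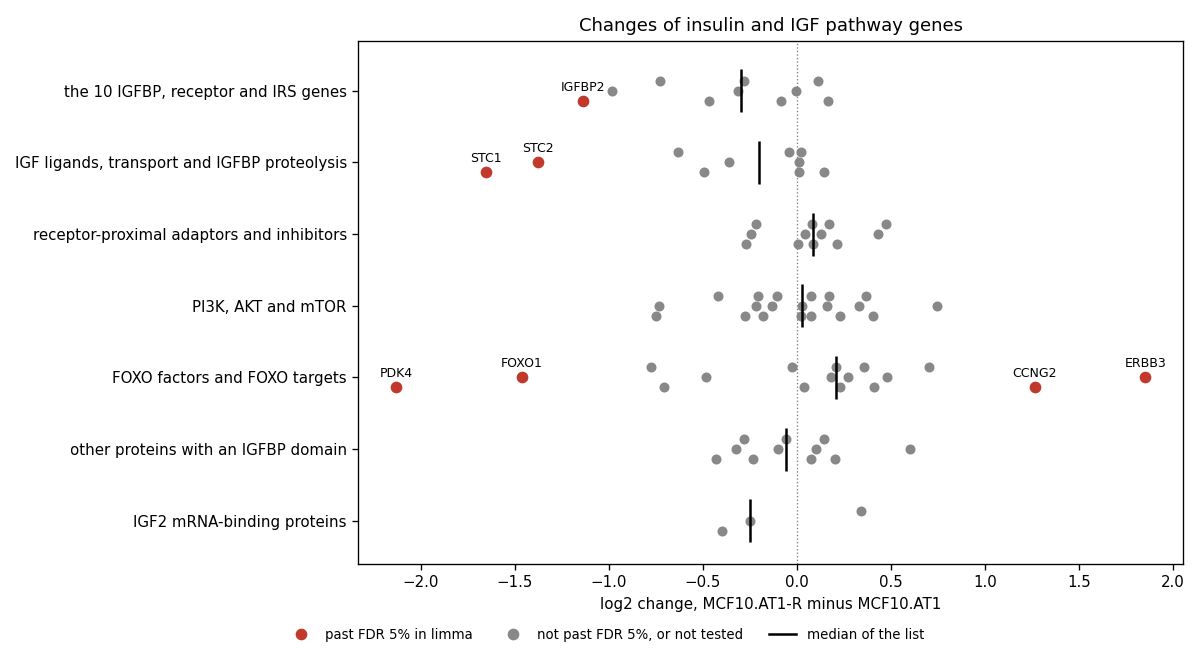
Log2 change, MCF10.AT1-R minus MCF10.AT1, of the 10 genes and of the 73 genes of the 6 lists, with 1 point per gene and a bar at the median of each list. The 7 genes past FDR 5% are labelled, and they lie in the 10 genes, the ligand and proteolysis list and the FOXO list.

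The labelled cell type was checked with markers. All 9 mammary epithelial markers were above the negative-control level on the 5 arrays, KRT18 with a mean log2 level of 10.3. Of these markers 6 rose in MCF10.AT1-R (CDH1, KRT5, KRT8, KRT14, KRT17 and TP63), from 1.11 for KRT8 to 4.08 for KRT17 on the log2 scale by limma. The summed log2 level of the 9 markers was 64.5 and 63.9 on the parental arrays and 78.0, 77.9 and 78.8 on the resistant arrays. The sums were thus higher in the line in which IGFBP2 was lower, and the part of the epithelial markers in the binding protein differences was not tested. KRT5, KRT14, KRT17 and TP63 stayed past FDR 5% whichever array was left out. In limma CDH1 was lost without A01 or A02 (adjusted p = 0.089 and 0.271), and KRT8 without A01, A02, B02 or B04 (0.510, 0.276, 0.084 and 0.127). Without any filter both were lost (0.062 and 0.126). In bulk RNA, fewer cells of a type and less RNA per cell cannot be told apart.

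Fibroblasts are a known source of binding proteins. Of 8 fibroblast markers, LUM and PDGFRB were under the negative-control level on all 5 arrays, FAP had a mean level of 8.68 and rose by 1.18, and DCN fell by 2.15. The summed log2 level of the 8 markers was 38.1 and 38.7 on the parental arrays and 37.8, 36.8 and 37.9 on the resistant arrays. Of 4 endothelial markers, PECAM1 fell by 1.12, KDR was under the negative-control level and VWF, at a mean level of 4.34, differed by −0.0031, and the sums were 13.8 and 13.4 against 12.7, 11.9 and 11.6. Of 4 adipocyte markers, FABP4, at a mean level of 4.35, fell by 1.93, while ADIPOQ and LEP were under the negative-control level on all 5 arrays, and the sums were 13.3 and 11.4 against 10.4, 7.80 and 10.2. Of 4 leukocyte markers none was called by limma, and PTPRC was under the negative-control level. The calls of FAP and PECAM1 were lost in limma without A01 (adjusted p = 0.350 and 0.296) or A02 (0.229 and 0.466), and also without B04 for FAP (0.056) and without B02 or B03 for PECAM1 (0.122 and 0.086). Without any filter both were lost (0.088 and 0.170). The part of these markers in the binding protein differences was not tested.

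The removed array A03 differed from the other 5 by gene. The 4 genes above a log2 level of 5 on all 5 arrays, IGFBP3, IGFBP6, IGFBP7 and IGF1R, read 2.47, 2.87, 2.16 and 2.25 on A03, which is a difference from their mean over the other arrays of −4.81 to −3.69. The other 6 genes differed from their mean by −1.30 to 0.97. IGFBP4 stood furthest above its mean, with 4.02 on A03. When A03 was added to MCF10.AT1, the log2 difference turned to 0.48 for IGFBP3 and 0.65 for IGFBP6. It widened to 1.39 for IGFBP7 and 1.74 for IGF1R, while that of IGFBP2 was −1.15. In that fit limma called 26 of 58201 probe sets and none of the 10 genes, with 1 of the 10 at an unadjusted p under 0.05. IGFBP2 and IGFBP5 then remained as the genes whose arrays stood apart.

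**Figure D4:**
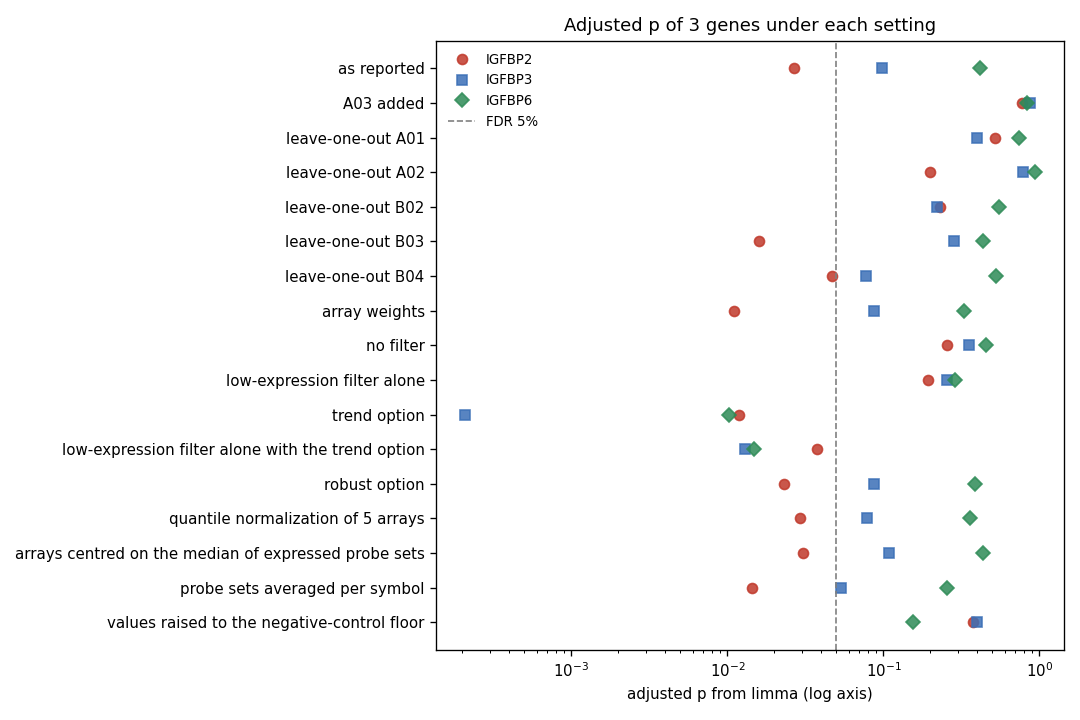
Adjusted p from limma (log axis) of IGFBP2, IGFBP3 and IGFBP6 under each processing setting, with a dashed line at FDR 5%. IGFBP2 lies on either side of the line depending on the setting, and IGFBP3 and IGFBP6 lie below it with the trend option, with or without the filter on invariant probe sets.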

How the data were processed

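Total RNA was profiled on Clariom D arrays, 3 per line. The authors made the deposited log2 values by RMA with the Bioconductor packages affy and oligo, whose versions, like the genome build, are not given in the sources used here. The deposited table held 138745 probe sets, of which 2995 controls were left out of the comparison and 86161 carried a symbol. Array names were assigned to lines through the legend of the study's principal component plot, and carried no replicate number. As in the study, A03 was removed and limma was used. A probe set was tested when its mean over 5 arrays exceeded the median of all (1.88) and its SD exceeded the lowest 25% (0.18), which left 51457. The limits of the study are not given in the sources used here, and these were taken from an earlier analysis of the series. Differences were fitted with lmFit and eBayes (limma 3.58.1, R 4.3.3), with Benjamini-Hochberg adjustment over all tested probe sets and FDR 5%. Genes removed by the filter were read from a fit without it. The fit was run on simulated data with known changes. That check required only that the mean estimates lay near the changes put in, and it does not bear on the FDR. The 10 genes and the lists were chosen with earlier results of these data known. All 10 genes are named, and from the lists those past FDR 5% and the 2 largest differences per list among genes above the negative-control level in a line mean, of which 1 is not reported here. The marker lists gave the genes named as markers. Alternatives changed the arrays, filters, normalization, variance model, the treatment of several probe sets and of values near the negative controls, and the threshold. The labels name 3 replicates per line, which the study calls biological replicates, and the number of arrays limits the precision. Promoter sequences and gene order are from RefSeq (GRCh38.p14), and all 10 genes were matched by symbol. No coordinates are given for probe sets.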

Additional observations from a re-analysis of the deposited data

How the results depend on the processing

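Of the 10 genes, 1 passed FDR 5% in limma. Over all probe sets limma called 620 of 51457 in the main fit, 26 of 58201 with A03 added and 177 of 135750 with no filter. It called 182 of 67875 with the low-expression filter alone and 177 of 51457 with values raised to the negative-control level. The count among the 10 genes was 0 in each of these alternatives, where 1, 3, 3 and 3 genes had an unadjusted p under 0.05. It was 3 with the trend option, with or without the filter on invariant probe sets, 2 at FDR 10%, and 0 to 1 when 1 array was left out (0 without A01, A02 or B02, with 3, 2 and 3 genes at an unadjusted p under 0.05). Arrays of 4 genes stood apart between the lines, 2 with A03 added and 4 to 7 with 1 array left out (7 without A01 or B03). Over all tested probe sets 26.7% stood apart in either direction, 15.3% with A03 added and 39.4% to 53.7% with 1 array left out (53.7% without A01, 40.5% without B03), since fewer arrays overlap less often. Of the list genes 6 were called, 0 with A03 added or with values raised to the negative-control level (3 and 12 at an unadjusted p under 0.05), 3 with no filter or the low-expression filter alone (STC1, PDK4 and ERBB3), 9 with the trend option, 8 with that option and the low-expression filter alone, 4 when probe sets were averaged per symbol, and 3 to 6 with 1 array left out. The adjusted p of IGFBP2 ranged from 0.011 to 0.777, and was 0.195 with the low-expression filter alone and 0.375 with values raised to the negative-control level. Without A02 the difference of IRS1 was 0.27, and with A03 added those of INSR and IRS2 were 0.18 and 0.37. Raising values to the negative-control level gives many probe sets identical arrays and so an SD near 0. The cause of the other shifts was not tested. Array weights, the robust option, quantile normalization of the 5 arrays, centring and averaging of probe sets each left IGFBP2 as the called gene. No paired analysis was possible because the array names carry no replicate number that both lines share. Values near the negative controls (IGFBP4, IGFBP5 and IRS1, and IGFBP2 on B02) limit what can be measured.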
